A study of Homo sapiens with 6 samples.

Results

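The nuclear-encoded genes of the mitochondrial respiratory chain and ATP synthase were compared between CaSki cells treated with TGF-β1 and untreated CaSki cells. CaSki is an established line of human cervical squamous carcinoma that carries papillomavirus DNA, and TGF-β1 is a secreted cytokine that acts through SMAD transcription factors. Treated cells received recombinant TGF-β1 at 2 ng/mL, and untreated cells received none, with 3 arrays in each group. How long cells were treated is not stated. Nor do the labels say whether a group's 3 arrays came from separate cultures, so p-values reflect only the spread between these samples, and that spread may be technical. A single cell line cannot show how other cervical cells respond.

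The genes were chosen by name: probe sets with a single gene symbol that begins with NDUFA, NDUFB, NDUFC, NDUFS, NDUFV, UQCR, COX4 to COX8 or ATP5, or is SDHA, SDHB, SDHC, SDHD, CYC1 or CYCS. This gave 177 probe sets for 92 of the 19775 genes measured, and where a gene had several, the brightest on average over the 6 arrays stood for it. Of the 92 genes, 79 encode subunits, tissue isoforms, the carrier cytochrome c or regulatory factors of complexes I to V. The other 13 match by name only and are 8 assembly factors of complex I and 5 pseudogenes, antisense or divergent transcripts. A listing of the complexes made for this comparison held 87 genes, and 8 of these were not analysed here. No mitochondrially encoded subunit was analysed here.

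The respiratory chain passes electrons from NADH through complex I, and from succinate through complex II, to ubiquinone, then through complex III and cytochrome c to complex IV, where oxygen is reduced. Complexes I, III and IV pump protons across the inner membrane, and ATP synthase, also called complex V, uses the return of these protons to make ATP. Most subunits are encoded in the nucleus and imported, while a few core subunits are encoded by mitochondrial DNA, so that the complexes need dedicated assembly factors, mitochondrial ribosomes and an import machinery.

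The cells had the markers of their label. The 7 measured epithelial and squamous markers averaged 10.4 to 12.6 over the 6 arrays (log2; the median of all values on the arrays was 4.16), with KRT8 called higher and EPCAM called lower in treated cells. Their mean level lay between 11.1 and 11.4 on treated and between 11.1 and 11.2 on untreated arrays. The mean level of 7 immune and endothelial markers lay between 4.11 and 4.17 on treated and between 4.16 and 4.23 on untreated arrays, and that of 8 fibroblast markers between 4.54 and 4.63 on treated and between 4.27 and 4.41 on untreated arrays. In the fibroblast list COL1A1, a collagen chain gene that TGF-β induces in many cell types, was called higher. It read 9.26, 9.47 and 9.39 on treated arrays, against 7.62, 7.89 and 7.88 on untreated arrays, while the median level of that list was 4.12. In the immune and endothelial list CDH5 was called lower at a level near the bottom of the scale. Its call held in 1 of 6 fits with a single array left out, and was lost without replicate 1 of both groups (adjusted p = 0.135). The part of these markers in the results below was not tested. Correlations between arrays were 0.994 to 0.996 within groups and 0.992 to 0.993 between groups. The arrays numbered 1 stood apart in both groups in RNA quality, read as the 3' over 5' signal of GAPDH and ACTB controls, at 1.15 (treated) and 1.19 (untreated), while the other 4 arrays had 0.69 to 0.863 (log2). Of the 92 genes, 37 (40.2%) had their lowest value on the array numbered 1 in both groups, against 19.8% of all genes, and 17 (18.5%) had their highest value there, against 13.0%. For the called members and the calls of the mitochondrial and metabolic lists, it is said below whether they passed without both of these arrays.

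Few of these genes changed with TGF-β1. UQCRC1 of complex III rose, and ATP5MC1 of ATP synthase, NDUFC1 of complex I and the complex I assembly factor NDUFAF2 fell. The other 88 genes did not pass the test (limma over all 19775 genes, Benjamini-Hochberg adjusted p below 0.05, here "called"). The 4 calls are 4.35% of the 92 genes, against 8.50% of all genes, with 1 called higher, where 4.03% of all genes were, and 3 called lower (3.26%), against 4.47% of all genes. At an unadjusted p below 0.05 there were 2 higher (2.17%, against 10.6% of all genes) and 13 lower members (14.1%, against 12.6% of all genes). The 95% intervals of 88 genes lay within a 1.5-fold change in either direction, as did those of 17783 of all 19775 genes. The exceptions among the members were UQCRC1, ATP5MC1, NDUFAF2 and the dim antisense transcript NDUFV2-AS1.

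The differences were mostly below 0 but small. On the log2 scale 73 of the 92 genes (79.3%) were lower and 19 higher in treated cells, with a median difference of -0.07, against 50.6% lower and a median of -0.003 over all genes. The members were bright, and bright genes in general leaned lower. Among the 2551 genes with a mean level between 8.38 and 11.0 (log2), the range that holds the middle of the members, 60.7% were lower in treated cells, the median was -0.05, and 17.2% were called. The treated and untreated values of 31 members did not overlap with treated cells lower (33.7%, against 16.3% of all genes and 35% in that level range). With treated cells higher, 4 members did not overlap (4.35%, against 12.9% of all genes and 19.3% in that level range). The share of members with separate lower values was therefore close to that of genes of similar level, and the share with separate higher values was below it. These shares are descriptions, and the members of a complex are not independent of each other.

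**Figure D1:**
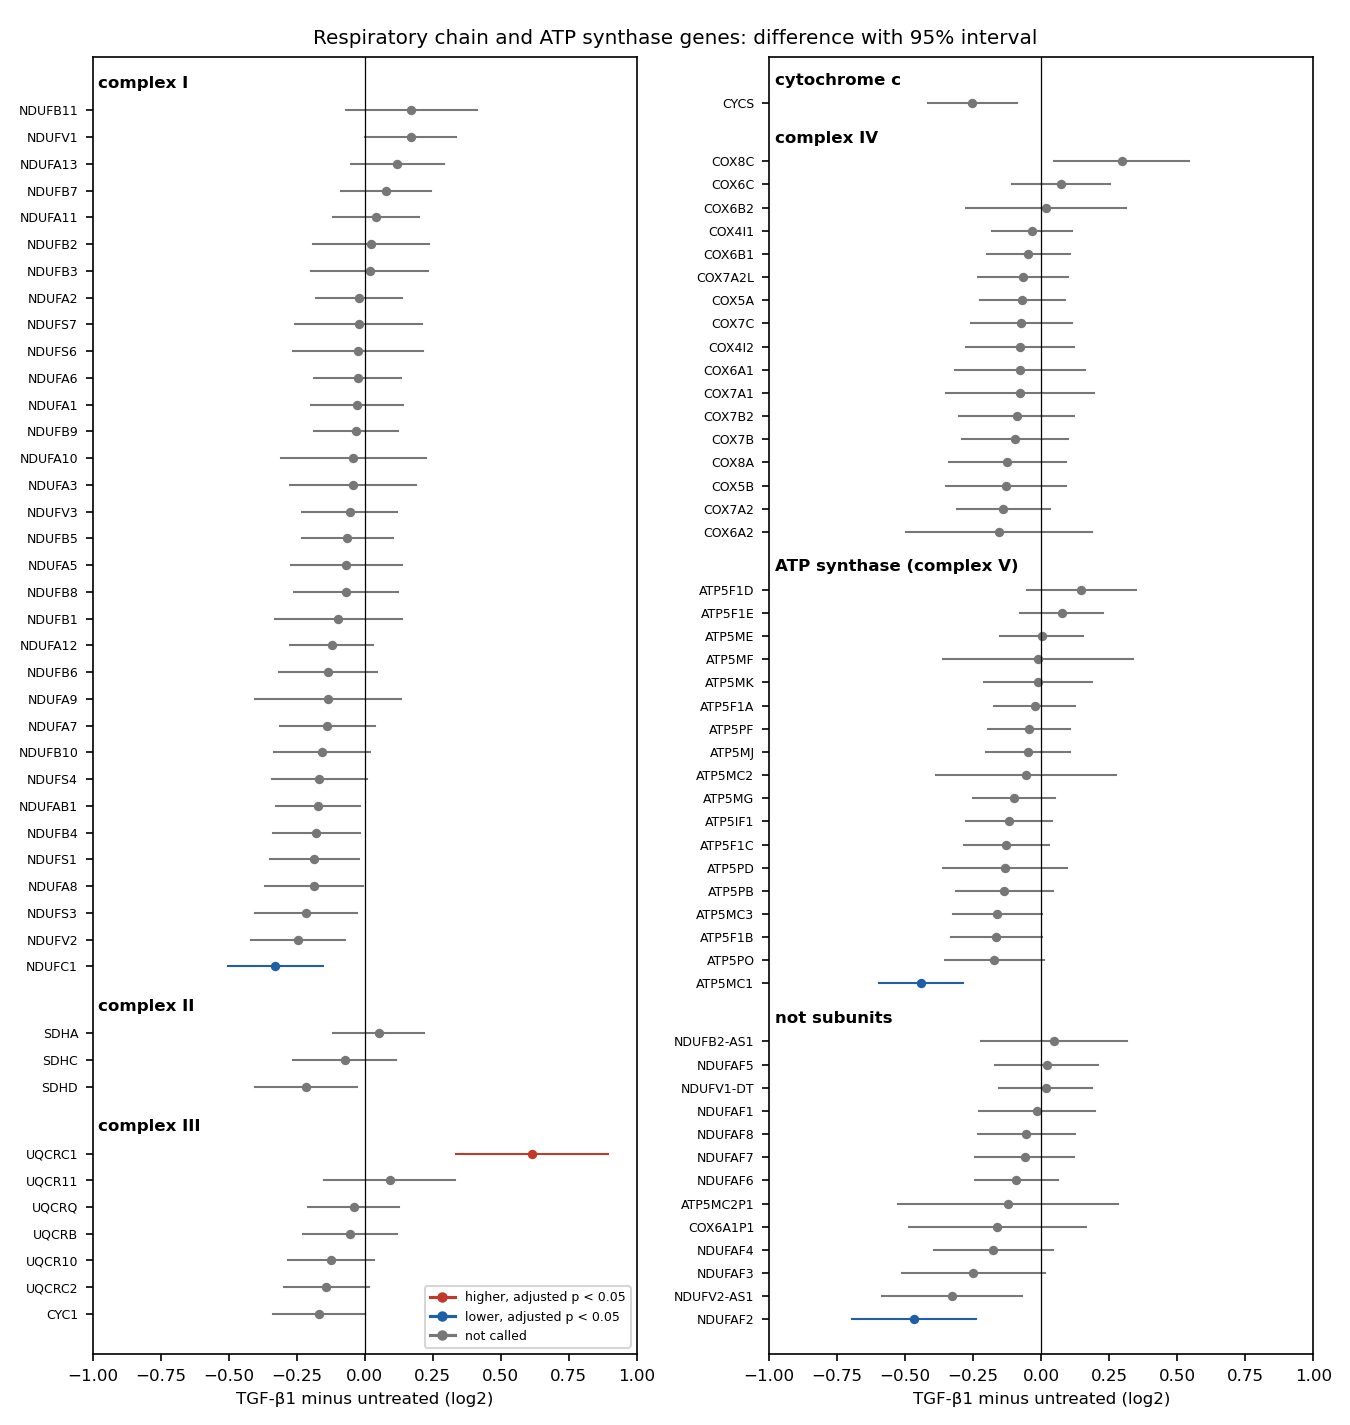
TGF-β1 minus untreated difference of each of the 92 genes (horizontal axis, log2), with the 95% interval of limma, grouped by complex; red marks genes called higher and blue genes called lower. UQCRC1 is the single red point at 0.61, ATP5MC1, NDUFC1 and NDUFAF2 are blue, and most other points lie a little left of 0.

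The 2 subunit genes with the largest differences are shown with the 250 bases before their annotated start (RefSeq, GRCh38.p14), since UQCRC1 rose and ATP5MC1 fell. They were searched on both strands for 4 motifs of factors known to act on respiratory chain genes: GCGCATGCG for NRF1, CCGGAAG for ETS factors such as GABPA, AAGATGGCG for YY1 and AAGGTCA for estrogen-related receptors.
UQCRC1, chr3:48609647-48609896, minus strand: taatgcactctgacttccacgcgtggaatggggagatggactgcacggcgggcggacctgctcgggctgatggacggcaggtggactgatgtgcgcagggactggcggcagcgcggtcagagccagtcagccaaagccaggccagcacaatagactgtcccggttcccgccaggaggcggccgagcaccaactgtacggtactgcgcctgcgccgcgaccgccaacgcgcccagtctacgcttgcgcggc
ATP5MC1, chr17:48892537-48892786, plus strand: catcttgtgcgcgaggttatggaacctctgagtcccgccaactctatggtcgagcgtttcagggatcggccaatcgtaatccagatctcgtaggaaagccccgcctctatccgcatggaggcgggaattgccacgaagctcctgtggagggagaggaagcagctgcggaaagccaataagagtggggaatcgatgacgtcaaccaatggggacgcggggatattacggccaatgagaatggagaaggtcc

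Neither window holds any of these letters, and the windows of NDUFC1 and NDUFAF2 do not hold them either. That says only that the letters are not in these windows. The NRF1 letters were commoner before the genes of the complexes than elsewhere, in 9 of the 67 genes with an entry in the table (13.4%), against 2.39% of the 15384 measured genes with an entry. The ETS letters were present in 15 of the 67 genes (22.4%), against 12% of measured genes, the estrogen-related receptor letters in 4 (5.97%), against 2.70%, and the YY1 letters in 1 (1.49%), against 0.793%. Matches to the ETS and YY1 letters can share bases, as can matches to the NRF1 letters on both strands.

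The 9 genes with NRF1 letters are shown with 40 bases around the match, in capitals, to set this known feature of the family beside the response.
ATP5F1C, chr10:7788137-7788176, plus strand: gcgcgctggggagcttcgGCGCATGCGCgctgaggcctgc
ATP5MC2, chr12:53676101-53676140, minus strand: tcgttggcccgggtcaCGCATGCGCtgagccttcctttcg
ATP5ME, chr4:674331-674370, minus strand: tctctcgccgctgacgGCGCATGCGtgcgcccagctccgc
ATP5PF, chr21:25735151-25735190, minus strand: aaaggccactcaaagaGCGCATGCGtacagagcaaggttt
COX6A1, chr12:120437878-120437917, plus strand: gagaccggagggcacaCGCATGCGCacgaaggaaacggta
NDUFB4, chr3:120596162-120596201, plus strand: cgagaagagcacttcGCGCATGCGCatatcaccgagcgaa
NDUFS6, chr5:1801345-1801384, plus strand: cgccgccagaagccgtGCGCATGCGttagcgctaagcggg
NDUFS7, chr19:1383817-1383856, plus strand: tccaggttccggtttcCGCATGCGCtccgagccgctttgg
SDHD, chr11:112086748-112086787, plus strand: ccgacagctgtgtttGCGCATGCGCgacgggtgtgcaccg

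Of these 9 genes, 0 were called (limma; at an unadjusted p below 0.05, NDUFB4 and SDHD were lower), and their differences ran from -0.22 for SDHD to 0.002 for ATP5ME, with a median of -0.06. The 58 genes of the complexes that had an entry and no NRF1 letters had a median of -0.07. Over all 367 measured genes with NRF1 letters the median was -0.04, with 9 called higher and 16 lower. The gene for NRF1 itself differed by 0.14 ± 0.10 (SE, limma adjusted p = 0.451).

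Array by array, the median deviation of the 79 genes of the complexes from their untreated means was -0.10, -0.07 and -0.06 (log2) on treated arrays 1, 2 and 3, and -0.02, 0.004 and 0.02 on untreated arrays 1, 2 and 3. The 3 treated arrays lay below the 3 untreated arrays. For all genes, the same medians lay between -0.01 and 0.01 on the 6 arrays. All genes are a dimmer group, and for genes of similar level medians by array were not taken. Genes at levels between 8.38 and 11.0 had a median difference of -0.05, against -0.07 for the 79 genes. The groups were also separate for the medians of complex I, complex III and ATP synthase. For complex IV, untreated array 1 lay at -0.0913, below the treated arrays at -0.0862, -0.04 and -0.03, and for complex II, treated array 2 at 0.02 lay among the untreated arrays.

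**Figure D2:**
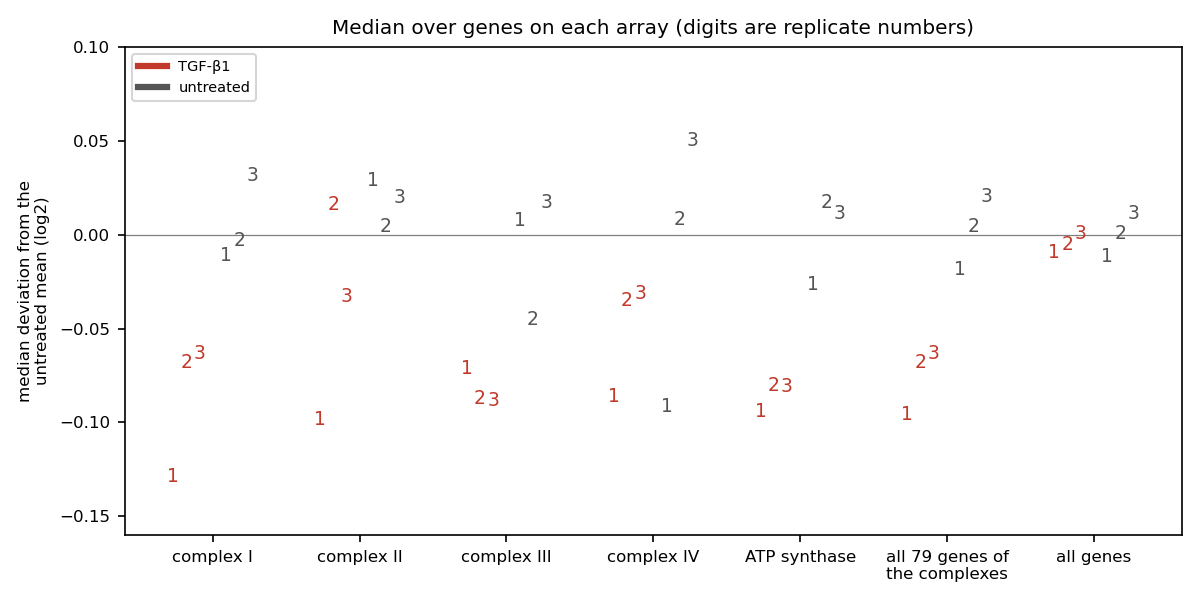
Median over the genes of each complex, over the 79 genes of the complexes and over all genes, of the deviation from the untreated mean (vertical axis, log2) on each array; red digits are treated and grey digits untreated replicate numbers. The treated arrays lie between -0.10 and -0.06 for the 79 genes and near 0 for all genes. Genes of a level similar to that of the 79 genes are not shown.

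Complex I, the NADH dehydrogenase, has a core inherited from bacteria and many accessory subunits around it. Of 33 measured subunits, 1 was called lower (3.03%, against 4.47% of all genes) and 0 higher, against 4.03% (limma; at an unadjusted p below 0.05, 7 were lower and 0 higher). The 7 are 21.2%, against 12.6% of all genes and 23.5% at levels between 8.38 and 11.0. The median difference was -0.06. NDUFC1, a small accessory subunit of the membrane arm, read 10.50, 10.61 and 10.67 on the treated arrays, against 10.93, 10.87 and 10.97 on the untreated arrays (log2). The groups did not overlap. NDUFC1 fell by 0.33 ± 0.08 (SE, log2; 1.26-fold lower, limma adjusted p = 0.0361), and a dimmer probe set (level 4.08) showed a difference of -0.32 without passing. The call was lost when any of the 6 arrays was left out, with adjusted p between 0.0576 and 0.124, and it was lost with both arrays numbered 1 left out (adjusted p = 0.146).

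Of the 5 measured core subunits of complex I, 3 had separate groups with lower treated values but did not pass. The 3 are 60%, against 16.3% of all genes and 35% at levels between 8.38 and 11.0. A share of 5 genes is a description only. NDUFV2, an iron-sulfur subunit of the NADH-oxidising module, read 9.66, 9.78 and 9.86 on treated arrays, against 10.02, 10.02 and 9.99 on untreated arrays. The NDUFV2 difference was -0.25 ± 0.08 (SE, limma adjusted p = 0.0920). It passed in 2 of 17 alternatives, but not as single arrays were left out (adjusted p from 0.0966 to 0.216). NDUFS3 differed by -0.22 (adjusted p = 0.155) and NDUFS1, the largest iron-sulfur subunit, by -0.19 (adjusted p = 0.162). NDUFV1, which binds NADH and forms a module with NDUFV2 and NDUFS1, went the other way, at 10.23, 10.36 and 10.38 on treated arrays, against 10.20, 10.13 and 10.14 on untreated arrays. Its difference of 0.17 had a 95% interval from -0.0006 to 0.34 (adjusted p = 0.217). The last of them, NDUFS7, differed by -0.02 and its groups overlapped.

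The 28 accessory subunits of complex I ran from -0.33 for NDUFC1 to 0.17 for NDUFB11 of the membrane arm, whose groups overlapped (adjusted p = 0.386). The NDUFB11 difference was 0.08 without untreated array 2 and 0.26 without untreated array 3. NDUFA8, NDUFB4 and NDUFAB1, the last of which is also the mitochondrial acyl carrier protein, differed by -0.19, -0.18 and -0.17 with separate groups and without passing. NDUFS1 and NDUFA7 are among 14 of 32 members with more than 1 probe set above the array median whose probe sets differed in sign. Values of such small size thus depended on the probe set.

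The 8 assembly factors of complex I in the name family act during its construction and are absent from the finished enzyme. NDUFAF2, a paralog of the subunit NDUFA12 that holds its place during assembly, read 8.28, 8.11 and 8.09 on treated arrays, against 8.79, 8.59 and 8.49 on untreated arrays (log2). Every treated value lay below every untreated one, and the array numbered 1 was highest in both groups. NDUFAF2 fell by 0.47 ± 0.10 (SE, log2; 1.38-fold lower, limma adjusted p = 0.0271). The adjusted p was 0.0876 and 0.0849 when treated array 2 or 3 was left out, 0.0783 and 0.0780 when untreated array 1 or 2 was, and 0.0601 without both arrays numbered 1. NDUFA12 itself differed by -0.12 (adjusted p = 0.321). The other 7 assembly factors ran from -0.25 for NDUFAF3 to 0.02 for NDUFAF5 and did not pass. The 5 pseudogenes, antisense and divergent transcripts were dim, at mean levels of 4.07 to 5.79, and did not pass either, with differences from -0.33 for NDUFV2-AS1 to 0.05 for NDUFB2-AS1.

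Complex II, succinate dehydrogenase, links the citrate cycle to the chain. Of its 3 measured subunits 0 were called in either direction, against 8.50% of all genes (limma; at an unadjusted p below 0.05, 1 was lower, against 12.6% of all genes). SDHA, the flavoprotein that oxidises succinate, differed by 0.05, with a 95% interval from -0.12 to 0.22. The membrane anchor gene SDHD read 9.64, 9.46 and 9.46 on treated arrays, against 9.77, 9.66 and 9.79 on untreated arrays. Its groups were separate, but the difference of -0.22 ± 0.08 (SE) did not pass (adjusted p = 0.157). SDHD passed in 1 of 17 alternatives, but not as single arrays were left out (limma adjusted p from 0.0859 to 0.346). SDHC, the other anchor, differed by -0.07 and its groups overlapped. SDHC has 7 probe sets, and the only one without a suffix for shared sequence that lay above the array median, at a level of 4.95, differed by 0.10.

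Complex III, the ubiquinol-cytochrome c reductase, held the largest difference of the chain. UQCRC1 encodes a core protein on the matrix side of the complex, related to the peptidase that removes import signals. It read 9.22, 9.35 and 9.39 on treated arrays, against 8.76, 8.45 and 8.92 on untreated arrays (log2). The treated values lay close together and above all untreated values, which spread over a wider range. UQCRC1 averaged 9.32 ± 0.09 in treated and 8.71 ± 0.24 in untreated cells (SD, n = 3 each), and rose 1.53-fold (difference 0.61 ± 0.12, SE, limma adjusted p = 0.0202). The adjusted p was 0.0674 and 0.0683 when treated array 2 or 3 was left out, 0.0571 when untreated array 1 was, and 0.0999 without both arrays numbered 1, and the difference ran from 0.49 to 0.72 as single arrays were left out. It has a single probe set, so no other probe set could be compared.

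No other measured subunit of complex III passed. UQCRC2, the partner core protein, read 9.32, 9.24 and 9.27 on treated arrays, against 9.44, 9.37 and 9.43 on untreated arrays, a difference of -0.14 ± 0.07 (SE, adjusted p = 0.260). The difference for UQCRC1 exceeded that for UQCRC2 by 0.76 (log2; exact two-sided permutation test over the arrays, p = 0.1, the smallest this design allows, and 0.15 adjusted over 3 such pairs). CYC1, the haem-bearing cytochrome c1, differed by -0.17 (adjusted p = 0.212). UQCR10, UQCRB and UQCRQ, small subunits of the membrane part, differed by -0.13, -0.05 and -0.04, and UQCR11 by 0.09, without passing.

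CYCS, which encodes the mobile carrier cytochrome c, was close to the threshold. It read 11.60, 11.55 and 11.53 on treated arrays, against 11.87, 11.82 and 11.74 on untreated arrays, with separate groups. The difference of -0.25 ± 0.07 (SE) did not pass (limma adjusted p = 0.0686). It passed in 3 of 17 alternatives, namely without dim genes (adjusted p = 0.0304), with a trended robust variance (adjusted p = 0.0026) and with array weights (adjusted p = 0.0497). It did not pass as single arrays were left out (adjusted p from 0.0856 to 0.190) or without both arrays numbered 1 (adjusted p = 0.173). The mean of its probe sets differed by -0.13 (adjusted p = 0.390), but takes in dim ones at levels of 4.09 and 3.22.

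Complex IV, cytochrome c oxidase, takes electrons from cytochrome c. Of 17 measured genes, 0 were called, against 8.50% of all genes (limma; at an unadjusted p below 0.05, 1 was higher and 0 lower). Over all genes 10.6% were higher and 12.6% lower at that unadjusted p. Of the 17 genes, 16 differed by less than 0.2 (log2), as did 14500 of all 19775 genes. The 10 subunits of the common form ran from -0.14 for COX7A2 to 0.07 for COX6C. COX4I1, a subunit that contacts the catalytic core, read 12.11, 12.12 and 12.12 on treated arrays, against 12.13, 12.14 and 12.17 on untreated arrays. Its groups were barely separate, and the difference of -0.03 had a 95% interval from -0.18 to 0.11. COX7A2L, which helps join complexes III and IV into supercomplexes, differed by -0.07 (adjusted p = 0.636).

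The 6 tissue isoforms of complex IV lay near the bottom of the scale, at mean levels of 2.19 to 4.53. They are COX6A2 and COX7A1 of heart and skeletal muscle, COX4I2 of lung, and COX6B2, COX7B2 and COX8C of testis. COX8C, at 2.57, 2.23 and 2.21 on treated arrays, against 2.10, 1.97 and 2.06 on untreated arrays, was the single member of complex IV with separate, higher treated values. Its difference of 0.30 did not pass (adjusted p = 0.144), and values this low carry no detection call here. It passed in 1 alternative, with the 3' over 5' signal as a covariate (adjusted p = 0.0477). The difference was 0.18 without treated array 1 (adjusted p = 0.217) and 0.21 without both arrays numbered 1 (adjusted p = 0.224). COX6A2 differed by -0.16 with overlapping groups, and by -0.02 without treated array 1.

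ATP synthase consists of the catalytic F1 head, the membrane-bound Fo part with its turning ring, and the stalks between them. Of 18 measured genes, 1 was called lower (5.56%, against 4.47% of all genes) and 0 higher, against 4.03% (limma; at an unadjusted p below 0.05, 1 was lower and 0 higher). Over all genes 12.6% were lower and 10.6% higher at that unadjusted p. The median difference was -0.08. ATP5MC1 is among 3 genes, with ATP5MC2 and ATP5MC3, that encode the same mature c subunit of the ring with different import sequences. It read 9.0, 8.93 and 8.99 on treated arrays, against 9.38, 9.41 and 9.46 on untreated arrays (log2). The treated arrays lay within a narrow range well below the untreated arrays. ATP5MC1 averaged 8.97 ± 0.04 in treated and 9.42 ± 0.04 in untreated cells (SD, n = 3 each), and fell by 0.44 ± 0.07 (SE, log2; 1.36-fold lower, limma adjusted p = 0.0071). Of the 4 called members it alone also passed without each of the 6 arrays in turn, with adjusted p between 0.0173 and 0.0382, and with both arrays numbered 1 left out (adjusted p = 0.0491).

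The other c subunit genes did not pass. ATP5MC3 read 10.72, 10.82 and 10.81 on treated arrays, against 10.88, 10.99 and 10.96 on untreated arrays, with separate groups and a difference of -0.16 ± 0.07 (SE, adjusted p = 0.225). ATP5MC2 differed by -0.06 with overlapping groups, and was lowest on the array numbered 1 in both groups, at 9.92 (treated) and 10.10 (untreated). The difference for ATP5MC1 lay below that for ATP5MC3 by 0.28 and below that for ATP5MC2 by 0.38 on the log2 scale (exact two-sided permutation test over the arrays, p = 0.1 and 0.3; 0.15 and 0.3 adjusted over the 3 pairs). The probe set of ATP5MC1 carries a suffix that marks shared sequence, so signal from its near-identical relatives may enter it.

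**Figure D3:**
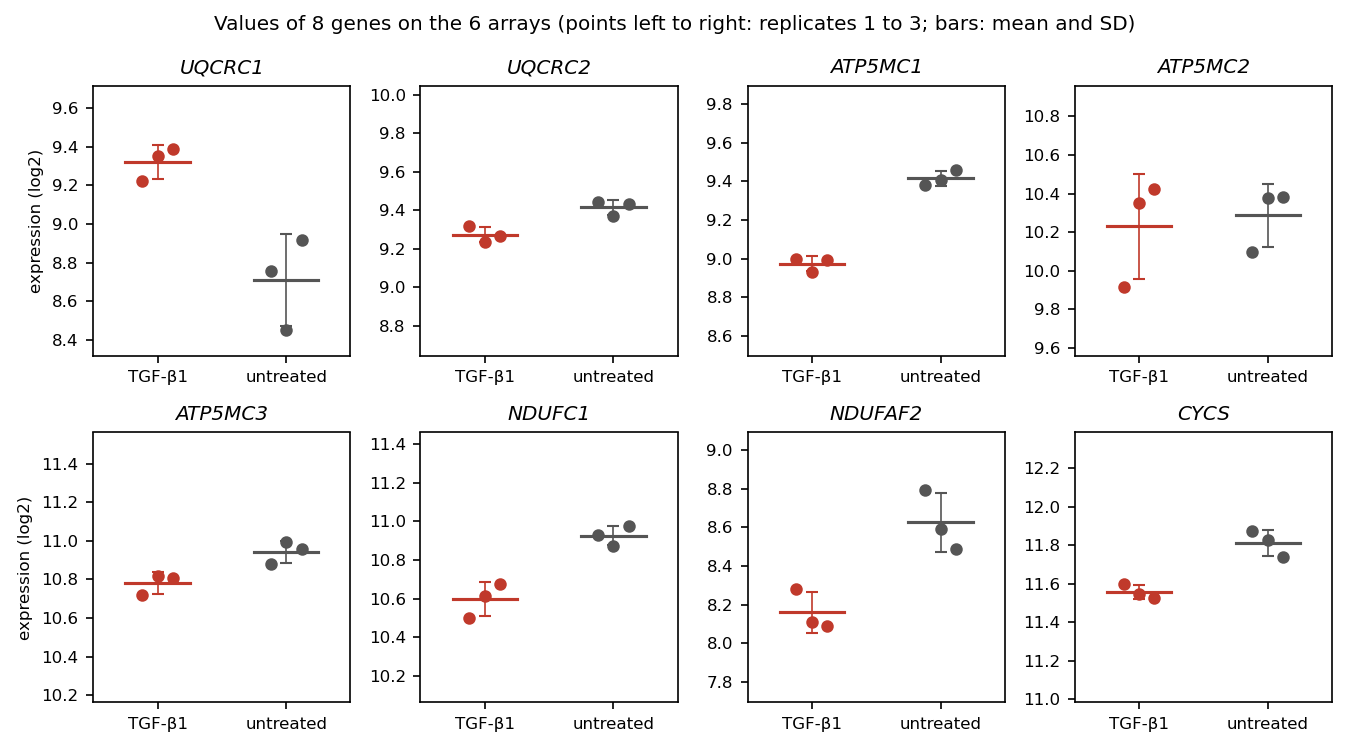
Expression (vertical axis, log2) of 8 genes on the 6 arrays, treated arrays left in red and untreated arrays right in grey, with the mean and SD of each group; every panel spans the same height. UQCRC1 is higher and ATP5MC1, NDUFC1, NDUFAF2 and CYCS are lower on all 3 treated arrays, and the groups overlap for ATP5MC2.

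Among the 5 F1 subunits, ATP5F1D and ATP5F1E of the central stalk differed by 0.15 and 0.07, and ATP5F1B, the catalytic beta subunit, by -0.17, without passing. The F1 subunit ATP5F1A differed by -0.02 with a 95% interval from -0.17 to 0.13. Of the 12 subunits of Fo and the stalks, 11 lay below 0 (91.7%, against 50.6% of all genes and 60.7% at levels between 8.38 and 11.0). ATP5PO, the stalk subunit that confers oligomycin sensitivity, differed by -0.17 (adjusted p = 0.237), and its second probe set above the array median differed by less than 0.001. ATP5IF1, the inhibitor that stops the enzyme from running backwards, differed by -0.12 (adjusted p = 0.356). ATP5MF was represented by a probe set at a level of 4.29, unlike the other subunits of the common enzyme, and its difference of -0.01 is a poor measure of that subunit.

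Several genes that build the complexes fell. Of 37 assembly factors of complexes II to V, 8 were called lower and 0 higher (limma; at an unadjusted p below 0.05, 15 were lower and 1 higher). The 8 are 21.6%, against 4.47% of all genes, 6.43% of genes above the median level and 9.29% at levels between 8.38 and 11.0. The 15 are 40.5%, against 12.6%, 16.8% and 23.5% of the same groups of genes. The median difference was -0.15. LRPPRC, which stabilises mitochondrial messenger RNAs, read 9.49, 9.57 and 9.55 on treated arrays, against 10.0, 9.98 and 10.07 on untreated arrays, 1.40-fold lower (difference -0.48 ± 0.07, SE, adjusted p = 0.0049). FMC1, an assembly factor of ATP synthase, read 7.40, 7.49 and 7.55 on treated arrays, against 7.99, 7.91 and 7.86 on untreated arrays, 1.36-fold lower (adjusted p = 0.0115). COX15, which makes the haem of complex IV, was 1.35-fold lower (adjusted p = 0.0141), and COA7 was 1.29-fold lower (adjusted p = 0.0144). COA4, UQCC3, PET117 and SDHAF3 were the other calls, at 1.35-fold, 1.27-fold, 1.31-fold and 1.22-fold lower. In all 8 the treated and untreated values did not overlap, which their selection by the test on the same values makes likely. Over the whole list, 19 of the 37 factors were separate with treated cells lower, and 2 with treated cells higher. The 19 are 51.4%, against 16.3% of all genes, 22% of genes above the median level and 35% at levels between 8.38 and 11.0.

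The number of these calls was smaller with fewer arrays. Leaving out treated array 1, 2 or 3 gave 6, 5 and 4 calls, leaving out untreated array 1, 2 or 3 gave 3, 3 and 2, and LRPPRC and FMC1 were among them each time. COA4 and COX15 passed in 4 of these 6 fits, COA7 in 2 and UQCC3 in 1. PET117 and SDHAF3 did not pass in any of them (adjusted p from 0.0600 to 0.114 and from 0.0677 to 0.119). Without both arrays numbered 1 the single call was COX15 (adjusted p = 0.0494), with LRPPRC at 0.0515. LRPPRC also lost its call with the mean of its probe sets, at a difference of -0.16 (adjusted p = 0.178). Of 11 other assembly factors of complex I, 0 were called, against 8.50% of all genes (limma; at an unadjusted p below 0.05, 2 were lower). The 2 are 18.2%, against 12.6% of all genes, and the median was -0.09.

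Of the 8 called assembly factors 7 had an entry in the promoter table, and 4 of these hold the ETS letters. Over the whole list these letters were present in 10 of 33 genes (30.3%), against 12% of measured genes. The 4 genes were picked by their calls, and whether the letters had a part in their fall was not tested. The gene for GABPA itself differed by -0.15 ± 0.09 (SE, limma adjusted p = 0.344). The 4 matches are shown with 40 bases each, in capitals.
COA4, chr11:73876959-73876998, minus strand: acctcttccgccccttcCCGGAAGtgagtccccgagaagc
COX15, chr10:99732128-99732167, minus strand: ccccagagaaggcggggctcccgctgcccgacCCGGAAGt
FMC1, chr7:139340285-139340324, plus strand: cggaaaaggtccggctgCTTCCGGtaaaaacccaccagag
SDHAF3, chr7:97117618-97117657, plus strand: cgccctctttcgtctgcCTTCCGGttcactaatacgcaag

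Other mitochondrial lists leaned the same way with few calls. Of 18 regulators of mitochondrial DNA and of chain genes, 2 were called lower and 0 higher (limma; at an unadjusted p below 0.05, 5 were lower and 0 higher). The 2 are 11.1%, against 4.47% of all genes, 6.43% of genes above the median level and 9.29% at levels between 8.38 and 11.0. The 5 are 27.8%, against 12.6%, 16.8% and 23.5% of the same groups of genes. The median was -0.13. TWNK, the helicase of mitochondrial DNA, was 1.34-fold lower (adjusted p = 0.0124), at 5.94, 5.96 and 6.02 on treated arrays, against 6.30, 6.45 and 6.45 on untreated arrays. TFAM, which packages mitochondrial DNA and starts its transcription, was 1.25-fold lower (adjusted p = 0.0239), at 8.85, 8.86 and 8.88 on treated arrays, against 9.23, 9.13 and 9.22 on untreated arrays. Both sets of values were separate, which the selection of these genes by the test makes likely. The TWNK call was lost without untreated array 2 or 3 (adjusted p = 0.0567 for each) and held without both arrays numbered 1 (adjusted p = 0.0494). The TFAM call was lost when any array was left out (adjusted p from 0.0509 to 0.0840) and without both arrays numbered 1 (adjusted p = 0.117). The coactivator genes PPARGC1A, PPARGC1B and PPRC1 differed by -0.11, -0.16 and -0.11 without passing, the first at a level of 2.58.

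Of 75 mitochondrial ribosomal proteins, 6 were called lower and 0 higher (limma; at an unadjusted p below 0.05, 29 were lower and 1 higher). The 6 are 8%, against 4.47% of all genes and 9.29% of genes at levels between 8.38 and 11.0. The 29 are 38.7%, against 12.6% and 23.5% of the same groups of genes. The median was -0.14, with 89.3% below 0. MRPL46 was 1.32-fold lower (adjusted p = 0.0106), MRPS6 1.30-fold (adjusted p = 0.0147), MRPL19 1.28-fold (adjusted p = 0.0170) and MRPS30 1.20-fold (adjusted p = 0.0484). MRPS27 and MRPL17 were the other calls, at 1.21-fold and 1.22-fold lower. This count moved widely: leaving out treated array 1, 2 or 3 gave 7, 1 and 2 calls, leaving out untreated array 1, 2 or 3 gave 1, 2 and 2, and 0 were left (limma) without both arrays numbered 1 (25 at an unadjusted p below 0.05). MRPL46 passed with each single array left out, while MRPS30, MRPS27 and MRPL17 did not pass with any single array left out.

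Of 25 genes of protein import and cristae, TOMM22 and TOMM5 of the outer membrane translocase were called, 1.33-fold and 1.26-fold lower (adjusted p = 0.0320 and 0.0416), with a median of -0.12. These are 8% of the list, against 4.47% of all genes called lower and 9.29% at levels between 8.38 and 11.0. TOMM22 passed without treated array 3 or untreated array 1 and TOMM5 without treated array 1, and neither passed with another single array left out (adjusted p up to 0.115 and 0.126) or without both arrays numbered 1 (adjusted p = 0.0712 and 0.103). Of 8 carriers and channels, among them the adenine nucleotide carriers SLC25A4 and SLC25A5, 0 were called, against 8.50% of all genes (limma; at an unadjusted p below 0.05, 3 were lower). The 3 are 37.5%, against 12.6% of all genes and 23.5% at levels between 8.38 and 11.0.

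The citrate cycle and glycolysis, which feed the chain or make ATP without it, had calls in single enzymes. Of 11 citrate cycle enzymes, IDH3A, the catalytic subunit of the NAD-dependent isocitrate dehydrogenase, was the only call, 1.40-fold lower (adjusted p = 0.0057). This call is 9.09% of the list, against 4.47% of all genes called lower and 9.29% at levels between 8.38 and 11.0. IDH3A read 7.49, 7.58 and 7.59 on treated arrays, against 8.01, 8.0 and 8.09 on untreated arrays. The call depended on the probe set, since the only IDH3A probe set without a suffix for shared sequence differed by 0.05 (adjusted p = 0.871) and the mean of all by -0.25 (adjusted p = 0.0856). It passed with each array left out and did not pass without both arrays numbered 1 (adjusted p = 0.0547). Of 17 glycolysis enzymes 1 was called higher and 2 lower (17.6%, against 8.50% of all genes and 17.2% at levels between 8.38 and 11.0). PKM, pyruvate kinase, rose 1.52-fold, at 10.15, 10.18 and 10.08 on treated arrays, against 9.65, 9.54 and 9.42 on untreated arrays (adjusted p = 0.0038). HK2, a hexokinase bound to mitochondria, was 1.42-fold lower (adjusted p = 0.0040) and LDHB, a lactate dehydrogenase subunit, 1.25-fold lower (adjusted p = 0.0384). PKM and HK2 passed with each array left out and without both arrays numbered 1 (adjusted p = 0.0299 and 0.0494), but the means of their probe sets differed by 0.19 and -0.21 without passing. The LDHB call was lost when any array was left out (adjusted p from 0.0603 to 0.131) and without both arrays numbered 1 (adjusted p = 0.108). The medians were -0.03 for the citrate cycle and -0.08 for glycolysis.

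**Figure D4:**
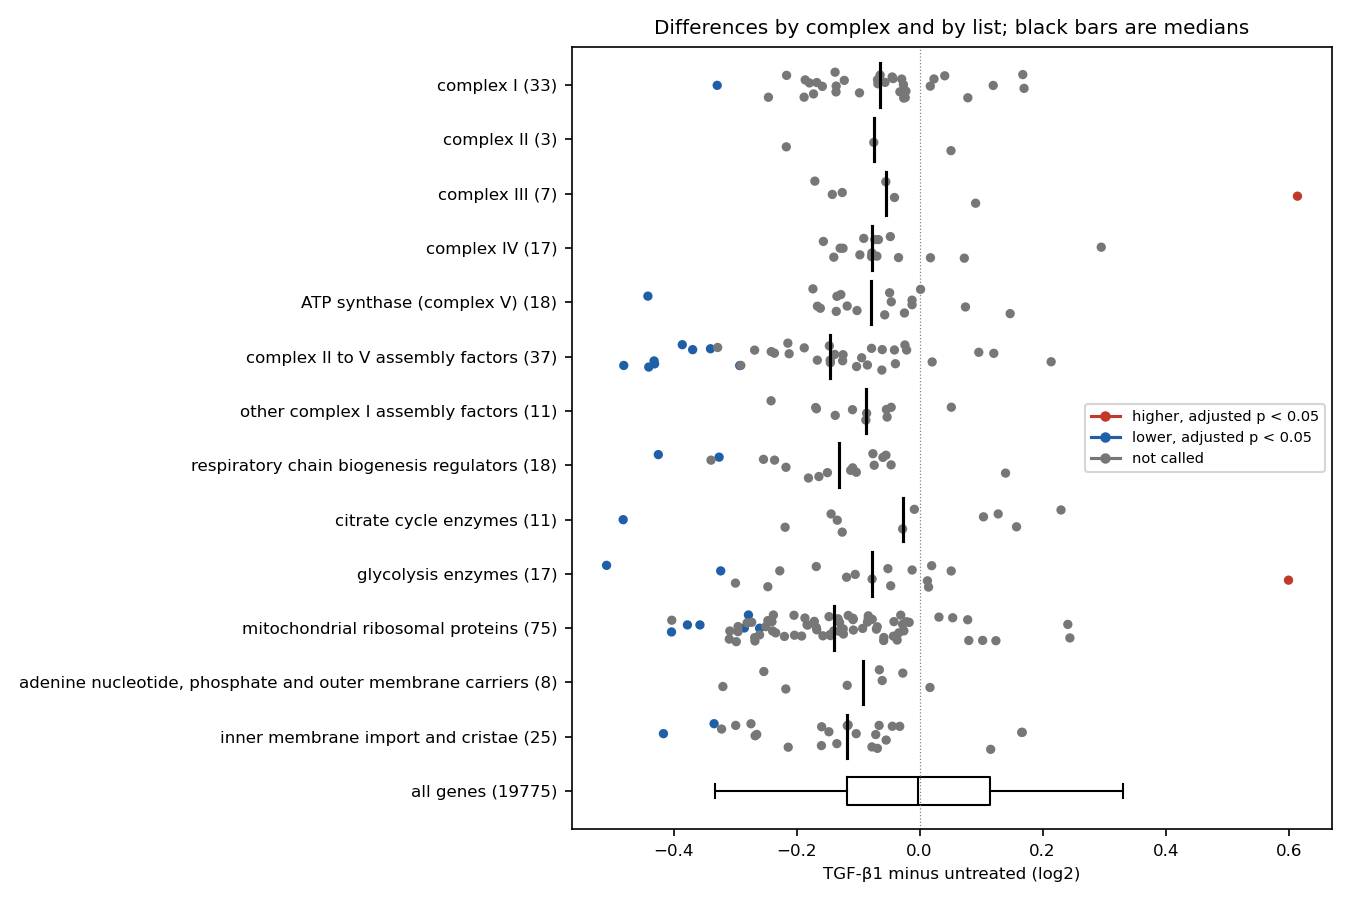
TGF-β1 minus untreated difference (horizontal axis, log2) of every gene of complexes I to V and of the other lists, with red for genes called higher, blue for genes called lower and a black bar at each median; the box for all genes spans the quartiles and its whiskers the central 90%. The calls are few among the subunits, and all 8 calls of the assembly factors of complexes II to V are lower.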

How the data were processed

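Total RNA of 6 CaSki samples was hybridised to Affymetrix expression arrays. The authors deposited log2 expression values for 54675 probe sets per array, made with Affymetrix Expression Console and RMA per the submitters' processing notes, with versions and options not stated. RMA as a method corrects background, equalises the arrays' distributions and summarises probes. Values between 1.57 and 14.5 fit that scale. Arrays have no read depth, and 3 arrays per group limit the precision.

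Of the probe sets, 41091 non-control ones had 1 gene symbol in the platform annotation, and 1801 had several and were not used. Symbols were looked up by gene number in RefSeq (GRCh38.p14), which changed 0 of them. Each gene took its probe set with the highest mean. The test was limma 3.58.1 (R 4.3.3; lmFit and eBayes, no covariate or filter), adjusted by Benjamini-Hochberg over 19775 genes, with a threshold of 0.05. Differences are treated minus untreated. The fit was tested on simulated data.

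The members and lists were chosen with earlier results of these data known. Named were all called members, the 2 highest and 2 lowest genes of each complex and up to 4 called genes of each list by p. All other genes were named after their values were seen. The lists came to 12, of which 1, the mitochondrially encoded subunits, was not analysed here. Promoter windows came from the RefSeq table. Alternatives covered normalisation, filters, probe set choice, variance model, weights, a replicate block and left-out arrays. The removal of both arrays numbered 1 and the 3' over 5' covariate, and every alternative for called genes of the other lists, were chosen after seeing the data.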

Additional observations from a re-analysis of the deposited data

How the results depend on the processing

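The median difference of the 79 genes stayed below 0 in all 17 alternatives, between -0.104 (without untreated array 1) and -0.0479 as single arrays were left out and -0.09 without both arrays numbered 1. ATP5MC1 passed in the 16 alternatives that gave it a value, UQCRC1 in 13 of 17, NDUFAF2 in 11 of 16 and NDUFC1 in 6 of 17. Leaving out suffixed probe sets gave no value for ATP5MC1 and NDUFAF2. Calls among all genes numbered 1680, but 1004 without suffixed probe sets, 2629 with a trended robust variance, 628 without both arrays numbered 1 and 766 to 1319 as single arrays were left out. The 4 calls among members became 1 (UQCRC1) without suffixed probe sets, 12 (11 of them lower) with the trended robust variance, 1 (ATP5MC1) without both arrays numbered 1, 7 with the 3' over 5' covariate and 1 to 3 as single arrays were left out. The 8 calls among assembly factors became 5 with probe sets averaged, 3 without suffixed probe sets, 1 without both arrays numbered 1 and 2 to 6 without single arrays. The 6 calls among mitochondrial ribosomal proteins became 3 with median centring, 3 without suffixed probe sets, 3 with single probe sets tested, 3 with the replicate block, 18 without dim genes, 22 with the trended robust variance, 13 with array weights, 11 with the covariate, 0 without both arrays numbered 1 (limma; 25 at an unadjusted p below 0.05) and 1 to 7 without single arrays. Fits with fewer arrays or fewer genes have that as part of their construction, and for the other changes the cause was not tested. Signs turned for the citrate cycle enzyme IDH3A without suffixed probe sets (0.0460, adjusted p = 0.871). They also turned for ATP5F1E, SDHC and UQCR11, members that passed in no fit here. For ATP5F1E this was with the mean of its probe sets (-0.0701), which takes in a dim one at a level of 2.90. For SDHC it was without suffixed probe sets (0.10) and without both arrays numbered 1 (0.0149). For UQCR11 it was without treated array 1 (-0.0105 in a range up to 0.15). With the replicate number as a block, 1280 genes and 3 members were called, NDUFC1 being lost (adjusted p = 0.0572). The numbers were not taken as pairs, since 2 of the 3 correlations between their deviations from the group means lay below 0.1 (0.20, 0.06 and 0.09), although 5 of 6 arrays correlated best with their own number. No detection call was available, so levels near the bottom of the scale have no order.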
